A study of Homo sapiens with 12 samples.

Results

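HDAC4, HDAC5, HDAC7 and HDAC9 (class IIa), HDAC6 and HDAC10 (class IIb) and HDAC11 (class IV) are 7 of the 11 zinc-dependent histone deacetylases. They were taken by gene name from the count table of each library, and all 7 are present in each of the 12 tables, as 7 of 25647 genes. RNA was measured by poly(A) RNA sequencing in 3 human carcinoma lines: A549, from a lung adenocarcinoma; HCT116, from a colorectal carcinoma; and MHCC97H, from a liver cell carcinoma. Cells of each line stayed untreated or received 1 µM TSA (trichostatin A, which inhibits histone deacetylases), 50 µM GSK126 (which inhibits the H3K27 methyltransferase EZH2) or 100 µM S2101 (which inhibits the lysine demethylase LSD1, gene KDM1A). A549 and MHCC97H grew in DMEM and HCT116 in RPMI, so line and medium cannot be told apart. The exposure time is not given in the sources used here, nor is any vehicle control, and no allele or transgene is named for any group. Every line gave 1 library per condition, so a condition has n = 3, 1 library from each line. The spread behind each p-value is what condition and line terms leave, estimated over all 12 libraries. For the compounds it is the spread between lines after a line term. In contrasts between lines, the libraries that stand for a line are its differently treated cultures. In neither case is it the spread between repeat cultures.

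Class IIa enzymes have weak deacetylase activity of their own and act as signal-controlled repressors. They bind MEF2 and other transcription factors and recruit the NCoR corepressor complex, which carries HDAC3. Kinases of the CaMK, PKD, SIK and MARK families phosphorylate them, and 14-3-3 proteins then hold them in the cytoplasm. HDAC6 is a mainly cytoplasmic enzyme with a pair of catalytic domains that deacetylates α-tubulin, cortactin and HSP90 and binds ubiquitin. HDAC10 deacetylates polyamines, and HDAC11 removes long-chain fatty acyl groups, with the serine hydroxymethyltransferase SHMT2 as a known substrate. TSA is a hydroxamate that blocks class I enzymes and HDAC6 well and the class IIa catalytic domains poorly. RNA levels say nothing of the amount or activity of the proteins.

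In GRCh38.p14 (RefSeq), HDAC4 lies on chromosome 2 (239048168 to 239401649, minus strand) and HDAC5 on chromosome 17 (44076753 to 44123641, minus strand). HDAC7 lies on chromosome 12 (47782722 to 47821344, minus strand) and HDAC9 on chromosome 7 (18086825 to 19002416, plus strand). HDAC6 lies on the X chromosome (48801398 to 48824982, plus strand), HDAC10 on chromosome 22 (50245183 to 50251265, minus strand) and HDAC11 on chromosome 3 (13480306 to 13506416, plus strand). The 250 bases upstream of an annotated start are shown for HDAC7, HDAC4 and HDAC6, the members whose RNA changed under TSA, and for HDAC9, whose level differed most between lines. The sequences are from RefSeq, written 5′ to 3′ on the strand of the gene, and capitals mark each GC box (GGGCGG, searched on both strands, so also CCGCCC), the core of Sp1-type sites. For genes with several annotated starts the window at the outermost one is shown. The windows are chr12:47819904-47820153 for HDAC7, chr2:239401650-239401899 for HDAC4, chrX:48801148-48801397 for HDAC6 and chr7:18086575-18086824 for HDAC9. The HDAC7 window, the only one listed for that gene, lies inside the gene, whose bounds reach 47821344. It is thus not the region upstream of the whole gene, as the other windows are.
HDAC7: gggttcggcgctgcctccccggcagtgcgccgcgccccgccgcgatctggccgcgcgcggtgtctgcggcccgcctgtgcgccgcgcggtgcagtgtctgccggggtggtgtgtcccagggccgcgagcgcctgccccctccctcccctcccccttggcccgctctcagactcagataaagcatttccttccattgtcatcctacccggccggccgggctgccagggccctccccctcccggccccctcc
HDAC4: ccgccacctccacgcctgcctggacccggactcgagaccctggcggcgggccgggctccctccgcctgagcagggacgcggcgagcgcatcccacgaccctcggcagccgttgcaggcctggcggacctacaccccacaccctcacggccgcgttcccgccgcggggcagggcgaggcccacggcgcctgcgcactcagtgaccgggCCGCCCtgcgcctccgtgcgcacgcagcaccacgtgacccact
HDAC6: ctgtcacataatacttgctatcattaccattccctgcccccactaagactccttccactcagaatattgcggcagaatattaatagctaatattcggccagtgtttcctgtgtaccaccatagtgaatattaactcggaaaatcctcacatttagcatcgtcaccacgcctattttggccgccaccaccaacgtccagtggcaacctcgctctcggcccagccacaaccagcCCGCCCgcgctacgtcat
HDAC9: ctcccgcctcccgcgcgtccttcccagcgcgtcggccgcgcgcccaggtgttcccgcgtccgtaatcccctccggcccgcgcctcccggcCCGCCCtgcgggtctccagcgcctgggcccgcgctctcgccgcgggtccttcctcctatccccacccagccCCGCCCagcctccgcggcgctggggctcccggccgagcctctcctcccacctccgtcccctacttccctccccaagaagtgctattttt
The HDAC7 window held 0 GC boxes, the HDAC4 and HDAC6 windows 1 each and the HDAC9 window 2, and 42.6% of 35116 RefSeq promoter windows of the same length held at least 1. The HDAC4 window also held 1 palindromic E-box (CACGTG), found in 6.34% of all windows. A MEF2-like AT core (TATTTATA) was in none of the 4 windows and in 1.35% of all windows. The HDAC7, HDAC4 and HDAC9 windows were 75.6, 76.8 and 75.2% G or C, and the HDAC6 window 50.0%, with a median of 58.0% over all windows. HDAC4 and HDAC9 have 5 annotated starts each and HDAC6 has 3, and the counts per gene do not tell which start was used. The other HDAC6 windows held 2 and 3 GC boxes at 64.4 and 67.2% G or C, and the other HDAC4 and HDAC9 windows 0 GC boxes at 38.4 to 60.0%.

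The libraries held 14468304 to 19061367 counts, and 3 reads, the upper limit that a count of 0 allows, corresponded to 0.157 to 0.207 CPM (counts scaled to the library total). Lineage markers went partly against the labelled origins. Untreated MHCC97H had 7 of 11 liver markers at 1 CPM or more, led by HNF4A at 58.5 CPM, with ALB at 0.561 CPM and TTR at 0 reads, and also 7 of 9 intestinal markers, led by KRT20 at 1160 CPM. Untreated A549 had 1 of 9 lung markers at that level, with NKX2-1, SFTPA1, SLC34A2 and AQP5 at 0 reads, and untreated HCT116 had 2 of 9 intestinal markers, with CDX1 at 0 reads. Across lineages, untreated A549 had 4 of 9 intestinal markers at that level and untreated HCT116 3 of 9 lung markers. Among markers of other cells, those of leukocytes summed to 0.931 to 11.6 CPM over the 12 libraries. Endothelial markers summed to 54.7 CPM in untreated MHCC97H and 26.7 CPM there under TSA, led by PECAM1 at 53.6 CPM untreated, and to at most 6.79 CPM in the other lines, with CDH5 at 0 reads in each untreated line. Fibroblast markers, led by COL1A1 in each untreated line, went under TSA from 1.54 to 42.8 CPM in MHCC97H, from 12 to 91.3 in A549 and from 24.6 to 65.2 in HCT116. The part of these shifts in the results was not tested. The A549 S2101 library stood apart by its reads of genes seen under TSA. Of 27 genes with 0 reads in untreated A549 and at least 100 under TSA, all 27 had reads in it. They stood at 8.57% of their TSA level. In the A549 GSK126 library 25 of 27 had reads, at 2.53%. By the same measure the HCT116 GSK126 library stood at 7.59%, over 3 such genes, and the other GSK126 and S2101 libraries at 0.735 to 1.84%. Chi-square per gene, a measure of how far the counts of a pair of libraries differ, did not set the A549 S2101 library apart. Against untreated it was 35.41 for S2101 in A549, 36.05 in MHCC97H and 29.58 in HCT116. For GSK126 it was 105.7 in A549, 34.03 in MHCC97H and 65.44 in HCT116. In bulk RNA, fewer cells of a type and less RNA per cell cannot be told apart.

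HDAC6 had the highest median level per transcript length of the 7 genes, with HDAC7 and HDAC5 next and close together, and HDAC9 varied most. On the deposited RPKM scale (reads scaled to the longest transcript and the library total), HDAC6 ran from 7.60 to 19.1 over the 12 libraries, with a median of 13.8, and HDAC7 from 1.59 to 18.2, with a median of 10.4. HDAC5 ran from 1.49 to 19.97 RPKM (median 10.1). HDAC4 (2.38 to 6.62), HDAC11 (2.84 to 6.48) and HDAC10 (2.13 to 9.43) lay lower, with medians of 4.31, 4.27 and 3.88 RPKM. HDAC9 ran from 0.0548 to 15.3 RPKM, a 280-fold range, against 2.28-fold for HDAC11 and 2.51-fold for HDAC6.

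The 7 genes made up a minority of the summed RPKM of the 11 zinc-dependent HDACs in every library. Their share was 27.8% in untreated MHCC97H, 27.0% in untreated A549 and 16.7% in untreated HCT116, the rest being class I (HDAC1, HDAC2, HDAC3 and HDAC8). Under TSA the share stood at 20.8, 20.2 and 17.3% in the same order of lines. Under GSK126 it stood at 37.8, 38.7 and 23.6%, above the untreated share in each line, and under S2101 at 34.5, 26.8 and 19.1%. The class IIa share went under TSA from 19.6 to 11.5% in MHCC97H, from 15.7 to 7.30% in A549 and from 7.95 to 7.15% in HCT116. HDAC7 was the highest of the 7 in untreated MHCC97H and A549 and the lowest in MHCC97H under TSA. HDAC6 was the highest in all 4 HCT116 libraries. The summed RPKM of the 7 was 48.2, 36.8 and 50.7 in untreated MHCC97H, A549 and HCT116 and 52.6, 40.8 and 47.2 under TSA. RPKM is scaled to library totals and carries no TMM factors, unlike the CPM below. The direction of the sum in MHCC97H and A549 depends on that scaling. Class I moved too: its summed RPKM was 125.0, 99.3 and 253.4 in the untreated lines and 200.8, 161.7 and 225.6 under TSA.

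**Figure D1:**
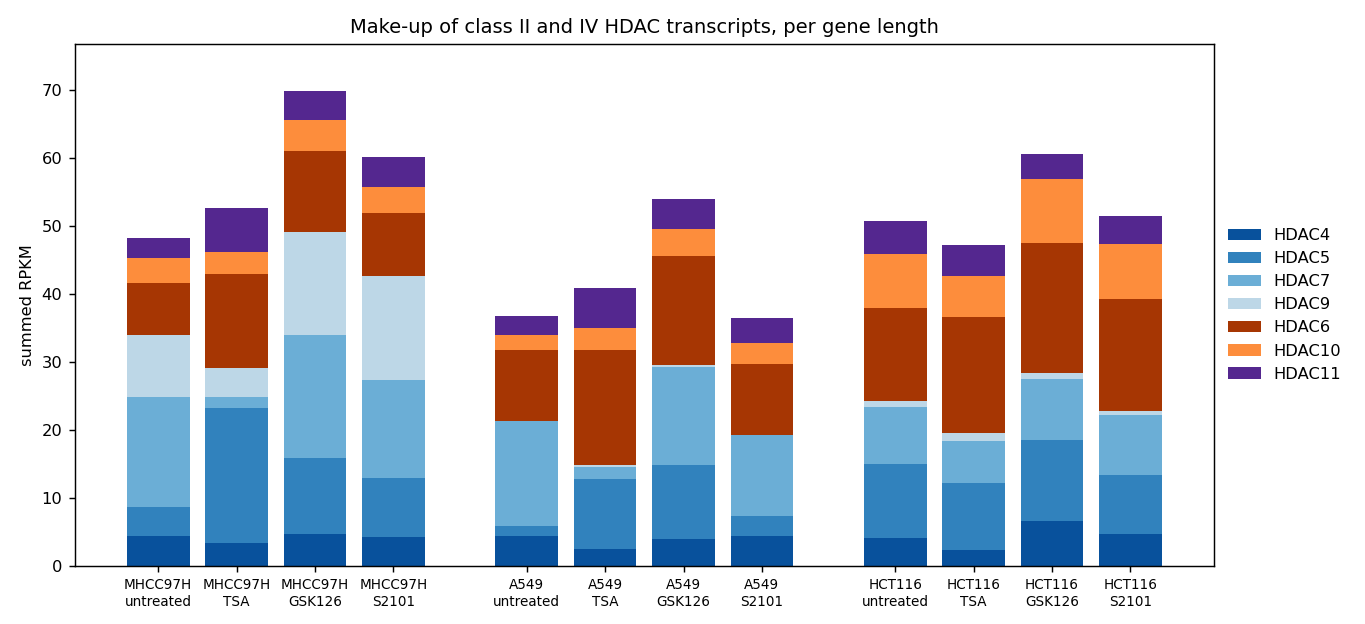
Summed RPKM of the 7 class II and IV HDACs (vertical axis), 1 stacked bar per library, grouped by line, with 1 colour per gene (blues class IIa, browns and oranges class IIb, purple class IV). The HDAC7 segment shrinks under TSA in MHCC97H and A549 while the HDAC5 segment grows, and the GSK126 bar, at 69.8, 53.9 and 60.6 RPKM, is the tallest of each line.

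Under TSA, 3 of the 7 genes changed: HDAC7 and HDAC4 fell and HDAC6 rose. Over all genes, the quasi-likelihood F test of edgeR, with p-values adjusted by Benjamini and Hochberg, called 34.1% of 16394 tested genes (2798 higher and 2800 lower). All 7 members passed the filter on low counts, and 3 of 7 is close to that background share. The members' median log2 change was 0.13, against 0.07 over all genes. Leaving out MHCC97H or A549 left 0 of the 7 called, while leaving out HCT116 gave 5. A fit without the cell line term, and one on the 6 untreated and TSA libraries alone, called 0 of the 7. Over all genes 1152 were called without MHCC97H, 12 without A549 and 6495 without HCT116. The fit without the cell line term called 260 of all genes, and that on the 6 libraries 0.

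HDAC7, a class IIa repressor best known from thymocytes and vascular endothelium, fell furthest. Its level went from 78.0 CPM untreated to 6.67 under TSA in MHCC97H, from 71.5 to 7.04 in A549 and from 34.1 to 23.9 in HCT116. All 3 TSA libraries lay below all 3 untreated ones, but the drop was far larger in MHCC97H and A549 than in HCT116. How often the groups lay apart in this way over all tested genes was not counted, for TSA or for GSK126. The fall was 11.7-fold (95% counting interval 9.52 to 14.5) in MHCC97H, 10.2-fold (8.36 to 12.4) in A549 and 1.42-fold (1.25 to 1.62) in HCT116. These intervals cover counting error in 2 libraries each, and the difference between lines was not tested beyond it. The mean went from 61.2 ± 23.7 to 12.6 ± 9.86 CPM (SD, n = 3). The fitted log2 change was -2.20 ± 0.60 (SE; edgeR adjusted p = 0.022). Without MHCC97H it was -1.66 (adjusted p = 0.163) without A549 -1.61 (adjusted p = 0.239) and without HCT116 -3.40 (adjusted p = 0.00151). HDAC7 shares 9.70% of its exon bases with an antisense transcript, AC004466.1, in GENCODE 29, and whether reads were counted by strand is not given in the sources used here.

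HDAC4, the class IIa enzyme that restrains chondrocyte hypertrophy and muscle gene programmes, fell in each of the 3 lines. It went from 44.4 to 28.8 CPM in MHCC97H, from 42.2 to 20.1 in A549 and from 34.5 to 19.3 in HCT116. The groups did not overlap, which was not counted over all tested genes. The fold falls were 1.54 (1.36 to 1.75), 2.10 (1.83 to 2.41) and 1.79 (1.56 to 2.05) in the same order of lines. They lay closer together than those of HDAC7, but the intervals of MHCC97H and A549 did not overlap. The mean went from 40.4 ± 5.18 to 22.7 ± 5.24 CPM, a log2 change of -0.84 ± 0.22 (SE; edgeR adjusted p = 0.017), with -0.95 (adjusted p = 0.0904) without MHCC97H and -0.69 (adjusted p = 0.169) without A549.

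HDAC5, the class IIa paralogue of HDAC4 with roles in heart and neurons, took opposite directions in different lines. It stood at 25.9 CPM untreated and 104.0 under TSA in MHCC97H, at 8.54 and 51.2 in A549, and at 55.8 and 47.0 in HCT116. TSA levels were 4.02-fold (3.59 to 4.52) and 5.99-fold (4.96 to 7.30) the untreated ones in MHCC97H and A549, and 0.842-fold (0.764 to 0.926) in HCT116. The line with the highest untreated level was the one without a higher value, and the groups overlapped. The fitted log2 change of 1.36 ± 0.52 did not pass (edgeR adjusted p = 0.0687). Without HCT116 it was 2.30 (adjusted p = 0.00899), and DESeq2 called it on all 12 libraries (adjusted p = 0.0184).

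HDAC9, whose truncated form MITR acts as a MEF2 repressor, was well measured in MHCC97H alone. It stood there at 48.2 CPM untreated and 19.8 under TSA, a 2.44-fold lower level (2.13 to 2.81). In HCT116 it stood at 3.67 and 5.09 CPM, a ratio of 1.39 (0.988 to 1.95). A549 had 4 reads untreated and 14 under TSA (0.275 and 0.873 CPM), a ratio of 3.17 with an interval from 0.995 to 13.2. The fitted log2 change over the lines was 0.13 ± 0.54 (edgeR adjusted p = 0.865).

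HDAC6, the class IIb tubulin deacetylase, rose in each line by less than 2-fold. It went from 35.1 to 55.3 CPM in MHCC97H, from 46.3 to 64.1 in A549 and from 53.8 to 63.3 in HCT116. The lowest TSA value lay just above the highest untreated value, and the lines lay closer together under TSA. How common such separation was over all tested genes was not counted. The ratios were 1.58 (1.41 to 1.77), 1.38 (1.25 to 1.53) and 1.18 (1.08 to 1.29). The mean went from 45.1 ± 9.42 to 60.9 ± 4.87 CPM, a log2 change of 0.46 ± 0.15 (SE; edgeR adjusted p = 0.0417). The value was 0.37 (adjusted p = 0.269) without MHCC97H, 0.49 (adjusted p = 0.174) without A549 and 0.45 (adjusted p = 0.0687) with no filter on low counts.

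HDAC10, the class IIb polyamine deacetylase, did not pass the test under TSA. It stood at 11.4 CPM untreated and 8.47 under TSA in MHCC97H, at 6.27 and 8.41 in A549, and at 20.5 and 15.0 in HCT116. Values were lower in MHCC97H and HCT116 and higher in A549, and the fitted log2 change was -0.16 ± 0.21 (edgeR adjusted p = 0.59). Counts for HDAC10 are uncertain: in GENCODE 29, transcript models of the neighbouring kinase gene MAPK12 on the same strand cover 55.8% of its exon bases, and how shared reads were counted is not given in the sources used here.

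HDAC11, the class IV enzyme, followed the pattern of HDAC5 at a smaller scale. It stood at 9.39 CPM untreated and 18.5 under TSA in MHCC97H, at 8.95 and 15.6 in A549, and at 13.3 and 11.8 in HCT116. The ratios were 1.97 (1.59 to 2.44) and 1.74 (1.40 to 2.17) in MHCC97H and A549, and 0.889 (0.730 to 1.08) in HCT116, where the interval included no change. The fitted log2 change of 0.52 ± 0.25 did not pass (edgeR adjusted p = 0.131), and without HCT116 it was 0.92 (adjusted p = 0.0189).

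**Figure D2:**
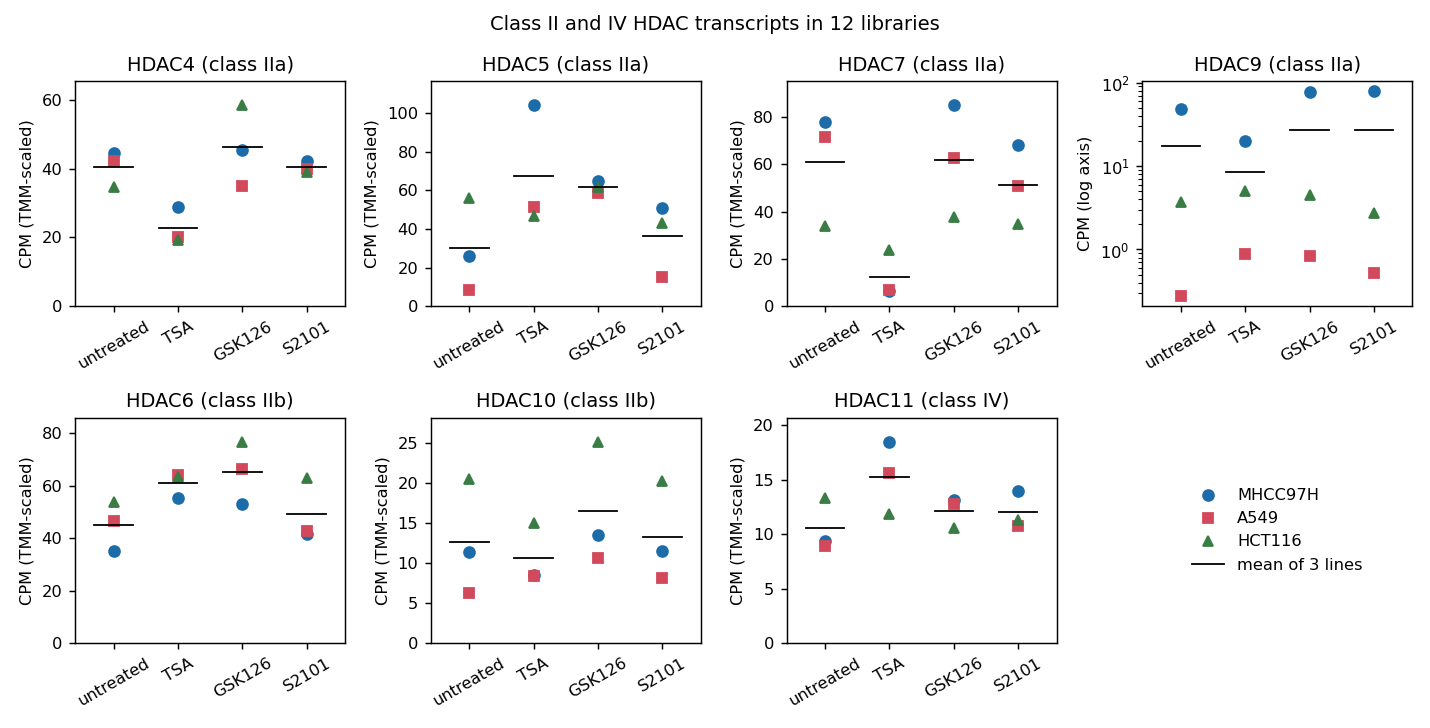
TMM-scaled CPM of each class II and IV HDAC (vertical axis, linear from 0, but a log axis for HDAC9) in the 12 libraries, with 1 panel per gene, conditions along the horizontal axis, 1 point per library marked by cell line, and a bar at the mean of 3 lines. HDAC7 drops from 78.0 and 71.5 CPM to 6.67 and 7.04 in MHCC97H and A549 under TSA and stands at 23.9 in HCT116, and HDAC9 in A549 stays under 1 CPM.

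Under TSA, HCT116 had the log2 ratio closest to 0 of the 3 lines for HDAC5, HDAC7, HDAC6, HDAC9 and HDAC11. On log2 ratios of CPM plus 1, its values were -0.24 for HDAC5, -0.49 for HDAC7, 0.23 for HDAC6, 0.38 for HDAC9 and -0.16 for HDAC11. MHCC97H had 1.97, -3.36, 0.64, -1.25 and 0.91 for the same genes, and A549 2.45, -3.17, 0.46, 0.55 and 0.74. HDAC4 and HDAC10 departed from this order, with -0.61, -1.04 and -0.81 for HDAC4 and -0.38, 0.37 and -0.43 for HDAC10 in MHCC97H, A549 and HCT116. HCT116 also differed least over all genes with enough reads. Chi-square per gene between untreated and TSA was 105.3 there, 199.8 in MHCC97H and 209.3 in A549. How many of all tested genes had HCT116 closest to 0 was not counted. With 1 library per line and condition these differences between lines have no test.

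**Figure D3:**
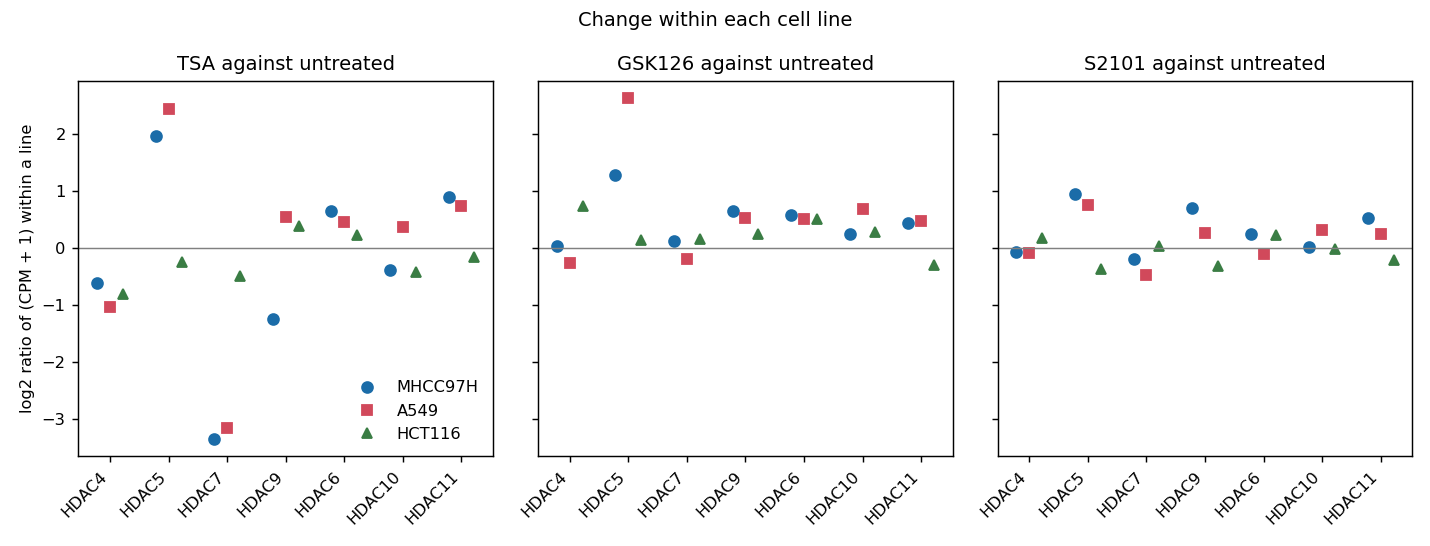
Log2 ratio of treated to untreated CPM plus 1 (vertical axis) for each class II and IV HDAC (horizontal axis), 1 panel per compound and 1 point per cell line. Under TSA the points of HDAC7 spread from -3.36 to -0.49 and those of HDAC5 from -0.24 to 2.45, while under GSK126 those of HDAC6 span 0.50 to 0.58.

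Under GSK126, HDAC5, HDAC6, HDAC9 and HDAC10 had higher values than untreated in all 3 lines. How many of all tested genes did so was not counted. The edgeR test called 0 of the 7 genes and 0% of all 16394 genes against untreated. At an unadjusted p under 0.05 there were 2 of the 7 and 2784 of all genes, and DESeq2 called 1 of the 7 and 1079 of all genes. With GSK126, HDAC5 stood at 64.8 CPM in MHCC97H, 58.4 in A549 and 61.8 in HCT116, from the untreated 25.9, 8.54 and 55.8. The 3 lines lay within 58.4 to 64.8 CPM although they spanned 8.54 to 55.8 untreated. The groups did not overlap here, a separation that was not counted over all tested genes. The ratios were 2.50 (2.22 to 2.83), 6.84 (5.66 to 8.32) and 1.11 (1.01 to 1.21), and the fitted log2 change was 1.3 ± 0.51 (edgeR adjusted p = 0.236). HDAC6 stood at 53.0, 66.4 and 76.7 CPM, from 35.1, 46.3 and 53.8. Its ratios of 1.51 (1.35 to 1.70), 1.43 (1.3 to 1.58) and 1.43 (1.31 to 1.56) were alike in the 3 lines within counting error. The fitted log2 change was 0.54 ± 0.15 (edgeR adjusted p = 0.124), and 0.57 in each of the 2 fits that called it, DESeq2 (adjusted p = 0.0104) and edgeR without the TSA libraries (adjusted p = 0.0252).

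Of the other 5 genes, HDAC4, HDAC7 and HDAC11 were higher in 2 of 3 lines under GSK126. HDAC4 stood at 45.3, 35.0 and 58.4 CPM in MHCC97H, A549 and HCT116, with a ratio of 1.69 (1.52 to 1.88) in HCT116 and 0.828 (0.737 to 0.931) in A549. HDAC7 stood at 85.0, 62.8 and 37.9 CPM, with ratios from 0.877 to 1.11. HDAC9 stood at 76.7 CPM in MHCC97H, 1.59-fold (1.44 to 1.75) its untreated level, with ratios of 3.04 (0.941 to 12.8) in A549 and 1.24 (0.863 to 1.77) in HCT116, where the intervals included no change. HDAC10 ratios were 1.20, 1.71 and 1.23, and HDAC11 ratios 1.40, 1.43 and 0.795. Fitted log2 changes were 0.19 ± 0.21 for HDAC4, 0.01 ± 0.54 for HDAC7, 0.66 ± 0.52 for HDAC9, 0.43 ± 0.21 for HDAC10 and 0.19 ± 0.25 for HDAC11, and each had an edgeR adjusted p of at least 0.355.

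S2101 changed none of the 7 genes by the test. EdgeR called 0% of all genes against untreated, 0 of the 7 and 821 of all genes had an unadjusted p under 0.05, and DESeq2 called 0 of the 7 and 18 of all genes. HDAC5 stood at 51.1, 15.0 and 43.0 CPM in MHCC97H, A549 and HCT116, ratios of 1.98 (1.75 to 2.24), 1.76 (1.41 to 2.21) and 0.770 (0.700 to 0.847). As under TSA, its value was above untreated in MHCC97H and A549 and below it in HCT116. HDAC7 stood at 68.3, 51.1 and 34.8 CPM, with a ratio of 0.714 (0.650 to 0.784) in A549. That A549 library stood apart by its reads of genes seen under TSA, but not by chi-square per gene. HDAC9 in MHCC97H stood at 78.8 CPM, 1.63-fold (1.49 to 1.79) its untreated level. Fitted log2 changes ran from -0.25 ± 0.54 for HDAC7 to 0.35 ± 0.52 for HDAC9. The 3 compound contrasts share the untreated libraries.

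Set against each other, TSA differed from GSK126 and from S2101 in HDAC4 and HDAC7. In TSA against GSK126, edgeR called 2 of the 7 genes and 28.7% of all genes: HDAC4 with -1.03 ± 0.21 (adjusted p = 0.0093) and HDAC7 with -2.21 ± 0.60 (adjusted p = 0.024). In TSA against S2101 it called the same 2 and 26.3% of all genes: HDAC4 with -0.84 (adjusted p = 0.0217) and HDAC7 with -1.94 (adjusted p = 0.0398). Without the A549 S2101 library these were -0.79 (adjusted p = 0.0817) and -1.90 (adjusted p = 0.101). Leaving out all MHCC97H or all A549 libraries left 0 of the 7 called in both contrasts. Over all genes these 2 omissions left 1088 and 0 called in TSA against GSK126, and 0 and 17 in TSA against S2101. HDAC5 and HDAC6 did not pass between TSA and GSK126, whose HDAC6 means were 60.9 ± 4.87 and 65.4 ± 11.9 CPM. In GSK126 against S2101, 0 of the 7 and 0% of all genes were called. There 1 of the 7, HDAC6 (0.42 ± 0.15), and 455 of all genes had an unadjusted p under 0.05, and DESeq2 called 0 genes.

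Between lines, HDAC9 differed in all 3 pairs, and HDAC10 set HCT116 apart from the other 2. The order of the lines for HDAC9 was the same in each condition. HDAC9 stood at 11 ± 5.28 RPKM in MHCC97H (SD over the 4 conditions), 0.916 ± 0.244 in HCT116 and 0.137 ± 0.0669 in A549. The lowest MHCC97H library, that under TSA, held 4.34 RPKM, above the highest HCT116 library at 1.21, and all A549 libraries lay at or under 0.203. The A549 counts were 4, 14, 13 and 8 reads, close to the limit of what could be detected. Over the 4 conditions, HDAC9 was 85.7-fold higher in MHCC97H than in A549 (log2 6.42 ± 0.54, edgeR adjusted p = 4.3e-05) and 13.3-fold higher than in HCT116 (log2 3.73 ± 0.46, adjusted p = 0.000166). It was 6.45-fold lower in A549 than in HCT116 (log2 -2.69 ± 0.51, adjusted p = 0.00242). EdgeR called 43.5% of all genes between MHCC97H and A549, 55.1% between MHCC97H and HCT116 and 44.1% between A549 and HCT116. Of the 7 genes it called 1, 3 and 2, shares at or below those backgrounds.

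HDAC10 counts were higher in HCT116 than in both other lines. They carry the uncertainty given above, since MAPK12 models cover 55.8% of the HDAC10 exon bases. The part of MAPK12 reads in the difference between lines was not tested. HCT116 held 20.5, 15.0, 25.2 and 20.3 CPM untreated and under TSA, GSK126 and S2101, MHCC97H 11.4, 8.47, 13.6 and 11.5, and A549 6.27, 8.41, 10.7 and 8.11. Every HCT116 library lay above every library of the other lines. The log2 difference was -0.85 ± 0.18 for MHCC97H against HCT116 (edgeR adjusted p = 0.00366) and -1.26 ± 0.19 for A549 against HCT116 (adjusted p = 0.000669). MHCC97H and A549 did not differ by the test (0.42 ± 0.19, adjusted p = 0.0961). HDAC6 was lower in MHCC97H than in HCT116 (-0.49 ± 0.13, adjusted p = 0.0105), a call that was lost when the untreated, the GSK126 or the S2101 libraries were left out (adjusted p = 0.0706, 0.0595 and 0.063). HDAC4 and HDAC11 were called in no pair of lines, with log2 differences between -0.10 and 0.26.

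HDAC7 and HDAC5 differed between lines once the TSA libraries were left out. HDAC7 was then higher in MHCC97H than in HCT116 (log2 1.096, edgeR adjusted p = 6.63e-05) and in A549 than in HCT116 (0.78, adjusted p = 0.000752), against 0.33 and 0.06 on all 12 libraries. HDAC5 was lower in A549 than in HCT116 (-1.37, adjusted p = 0.0226), against -1.04 ± 0.45 (adjusted p = 0.0869) on all 12. In that fit 5 of the 7 genes were called between A549 and HCT116, and 8990 of all genes, against 7232 on all 12 libraries.

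The class I genes did not move as 1 group under TSA either. HDAC3, the catalytic subunit of NCoR, rose by 1.13 ± 0.28 on the log2 scale (edgeR adjusted p = 0.0157) and HDAC2 fell by 0.61 (adjusted p = 0.0112). Both calls were lost without MHCC97H (0.80, adjusted p = 0.149, and -0.46, adjusted p = 0.145) and without A549 (1.08, adjusted p = 0.163, and -0.60, adjusted p = 0.134). HDAC1 (0.17, adjusted p = 0.462) and HDAC8 (-0.32, adjusted p = 0.141) did not pass. The genes of the other drug targets did not pass under TSA, with EZH2 at -0.47 (adjusted p = 0.155) and KDM1A at -0.29 (adjusted p = 0.165).

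Genes that work with class IIa enzymes moved in both directions under TSA. Of 5 genes of the NCoR complex, 2 rose and 3 fell, with a median log2 change of -0.71. TBL1XR1, a WD40 exchange subunit, fell from 223.5 to 70.5 CPM in MHCC97H, from 123.0 to 34.3 in A549 and from 218.5 to 104.4 in HCT116 (log2 change -1.53 ± 0.20, edgeR adjusted p = 0.00191). Its relative TBL1X fell by 1.00, and the scaffold NCOR1 by 0.71, while HDAC3 and the subunit GPS2 (1.00 ± 0.20) rose. Of the 4 MEF2 factors, the transcription factors that class IIa enzymes repress, 2 rose and 0 fell, with a median of 0.81. MEF2B rose from 1.33, 2.55 and 5.48 CPM in MHCC97H, A549 and HCT116 to 5.80, 7.23 and 10.1 (1.46 ± 0.30, adjusted p = 0.00722). MEF2C rose from 3.93, 0.138 and 20.8 CPM to 5.67, 0.686 and 40.1 (0.97 ± 0.30, adjusted p = 0.0356), with few reads in A549. MEF2D (0.65, adjusted p = 0.0563) and MEF2A (0.04) did not pass.

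Of the 7 14-3-3 genes, 0 rose and 3 fell, with a median log2 change of -0.41. YWHAZ, the ζ isoform, fell from 2475 to 1199 CPM in MHCC97H, from 1402 to 668.2 in A549 and from 1477 to 990.8 in HCT116 (-0.91 ± 0.16, edgeR adjusted p = 0.00435), and YWHAE and YWHAQ fell by 0.67 and 0.66. Among 15 tested kinases of class IIa enzymes (17 listed; CAMK1G and CAMK2A had too few reads), 2 rose and 1 fell, with a median of 0.04. CAMK2B rose from under 0.5 CPM in each untreated line to 3.40, 1.62 and 2.67 CPM (2.88 ± 0.38, adjusted p = 0.00191), and SIK2 rose by 0.89. CAMK2D fell by 1.24 ± 0.36 (adjusted p = 0.0276), from 87.7 to 24.6 CPM in MHCC97H and from 51.0 to 12.3 in A549, with 67.8 and 65.2 CPM in HCT116. Of 13 tested partner factors (14 listed; ZBTB16 was not tested), 2 rose and 2 fell, with a median of 0.29. DNAJB5, a chaperone in a redox complex with HDAC4, rose by 1.82 ± 0.29, and the forkhead factor FOXO1 by 0.83. The corepressor CTBP1 fell by 1.06 and the heterochromatin protein gene CBX5 by 0.99.

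Among 20 genes for substrates and partners of HDAC6, 4 rose and 6 fell under TSA, with a median log2 change of -0.22. TUBA1B, a main α-tubulin gene, fell from 1301 to 268.9 CPM in MHCC97H, from 1895 to 382.6 in A549 and from 1392 to 439.2 in HCT116 (-2.08 ± 0.27, edgeR adjusted p = 0.00191), and TUBA1C fell by 1.14. TUBA genes are near copies of each other, so their counts are uncertain. SIRT2, the other tubulin deacetylase, rose from 32.3, 27.1 and 10.03 CPM in MHCC97H, A549 and HCT116 to 141.6, 158.7 and 21.0 (1.92 ± 0.26, adjusted p = 0.00201). TPPP, a tubulin-binding protein reported to inhibit HDAC6, rose from 8.41, 8.61 and 10.1 CPM to 59.8, 68.6 and 36.1 (2.57 ± 0.26, adjusted p = 0.00116).

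Of 13 polyamine genes, the pathway of the HDAC10 substrates, 6 rose and 3 fell, with a median of 0.56. SAT1, which acetylates spermidine and spermine, rose from 124.8, 120.5 and 121.2 CPM in MHCC97H, A549 and HCT116 to 552.7, 439.6 and 589.9 (2.08 ± 0.31, edgeR adjusted p = 0.00244). ODC1, the first enzyme of polyamine synthesis, rose by 2.05 ± 0.29 (adjusted p = 0.00219). PAOX, which oxidises acetylated polyamines, rose by 1.74 ± 0.47 (adjusted p = 0.0215), with 1.52 and 1.88 CPM in HCT116. SRM, spermidine synthase, fell by 1.08 ± 0.17. SHMT2, the HDAC11 substrate, did not pass (-0.42, adjusted p = 0.0864).

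The median over all 16394 tested genes was 0.07 under TSA, the background share called 34.1%, and the lists above were not tested as sets. Without A549, 0 genes of the 7 lists (MEF2, NCoR, 14-3-3, kinases, partner factors, HDAC6 and polyamine genes) were called, against 12 over all genes. Without MHCC97H, 0 MEF2 and 0 14-3-3 genes were called, against 2 each for NCoR, kinases, partner factors and polyamine genes and 3 for the HDAC6 list. Without A549 the log2 changes were -1.31 for TBL1XR1 (adjusted p = 0.0653), 1.47 for MEF2B (0.0971), 2.39 for TPPP (0.0593) and 2.24 for SAT1 (0.0613), close to those on all 12 libraries. Under GSK126 and under S2101, 0 genes of each list were called.

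**Figure D4:**
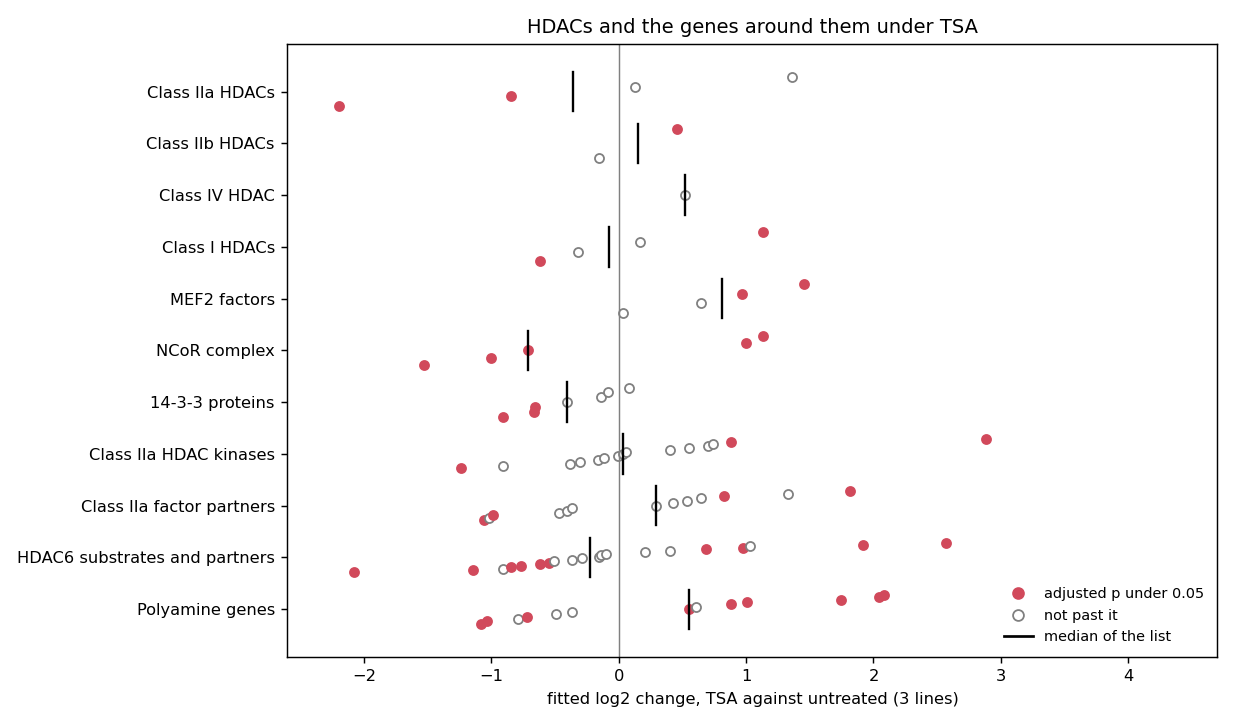
Fitted log2 change under TSA (horizontal axis) of the HDAC classes and the genes listed around them, 1 row per list and 1 point per gene; filled points passed an adjusted p of 0.05, open points did not, and bars are list medians. NCoR genes reach from -1.53 to 1.13 with all 5 shown past the threshold, and the MEF2 median stands at 0.81.

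By Pearson's r of log2 CPM over the 12 libraries, among 11958 genes with a mean of at least 5 CPM, the genes most like HDAC7 were NSMAF (0.986) and ZFP91 (0.985), and 191 genes had an r over 0.9. For HDAC9 they were COL6A1 (0.984) and CHN2 (0.983), with 115 genes over 0.9, and for HDAC10 LPAR2 (0.96) and STXBP2 (0.96). HDAC5 was most like KDM4B (0.94) and HECA (0.93), HDAC6 like ATP2A1 (0.94) and NAT6 (0.91), HDAC4 like COPZ1 (0.92) and LRP8 (0.91) and HDAC11 like HECTD3 (0.895) and TPRN (0.89). Among the members, HDAC5 and HDAC11 had r = 0.77 (0.85 after line means were removed) and HDAC4 and HDAC7 0.70 (0.71), while HDAC7 and HDAC11 had -0.70 (-0.78). The 12 points share lines and treatments, so these values describe the libraries and carry no p.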

How the data were processed

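Per the labels, RNA was extracted with Trizol, and NEBNext Ultra libraries were made from its poly(A) fraction. The authors deposited a raw read count per gene and an RPKM value per kilobase of longest transcript for each library, per the file headers. The submitters' processing notes name builds GRCh38 and hg38. The aligner, counter and use of strand were not given in the sources used here. Genes in all 12 tables (25647) were used, 11 entries naming no gene were left out, and 23 of 26 symbols turned into dates were renamed by accession. Counts went to edgeR 4.0.16 (R 4.3.3): TMM factors (0.89 to 1.11), filterByExpr by condition (16394 genes), a quasi-likelihood fit with condition and cell line (6 residual degrees of freedom, common coefficient of variation 0.295), Benjamini-Hochberg adjustment over all genes, threshold 0.05. The line pairs treated with untreated libraries, since each line has 1 library per condition. CPM are TMM-scaled; changes within a line use CPM plus 1 on the log2 scale, with exact 95% counting intervals on ratios, which cover counting error only. RPKM served for levels between genes. The code was tested on simulated counts. No pair of libraries of a line matched within sampling noise (lowest chi-square per gene 10.31). Alternatives were RLE size factors, other filters, no line term, 6 libraries, DESeq2 1.42.0, and libraries left out. The named genes were the 7 members, class I, and up to 4 called genes with the largest TSA change per list; NCOR1, MEF2A and MEF2D were added after their values were seen. A further gene was left out of the NCoR list, counted here over 5 genes, and is not reported. Members and lists were chosen with earlier results of these data known.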

Additional observations from a re-analysis of the deposited data

Results flagged for a closer look

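HDAC9 under TSA had values of opposite sign in different lines: the log2 ratio of CPM plus 1 was -1.25 in MHCC97H, 0.38 in HCT116 and 0.55 in A549, a difference of 1.80 between the highest and the lowest line. The difference between lines was not tested, since each line has 1 library per condition, and the A549 value rests on 4 and 14 reads. The counting interval of the ratio included 1 in HCT116 (0.988 to 1.95) and A549 (0.995 to 13.2) and lay below 1 in MHCC97H (0.356 to 0.470).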

How the results depend on the processing

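Of 693 refitted values of the 7 genes, 611 kept direction and side of the threshold, 34 lost their call, 16 gained one and 32 changed sign, 0 of these with a call in either fit. The fit without the replicate block (no cell line term) called 0 of the 7 genes and 260 of all genes in TSA against untreated, 0 and 14 in TSA against GSK126, and 0 and 0 in TSA against S2101. A fit on the 6 libraries compared called 0 of the 7 in these 3 contrasts, and 0, 135 and 0 of all genes; it called 275 of all genes in GSK126 against untreated and 20 in S2101 against untreated. Leaving out 1 line gave 0 to 5 of the 7 and 12 to 6495 genes in TSA against untreated, 0 to 2 and 0 to 5496 genes in TSA against GSK126, and 0 to 3 and 0 to 5144 genes in TSA against S2101. DESeq2 called 1 of the 7 and 1079 genes under GSK126, 18 genes under S2101, and 2 of the 7 in MHCC97H against A549. In GSK126 against untreated, edgeR called 7 genes with no filter, 7 with at least 10 CPM in 3 libraries, and 1 of the 7 and 2124 of all genes without the TSA libraries. Without the A549 S2101 library, TSA against S2101 had 0 of the 7 and 1926 genes. Without the TSA libraries, 2 of the 7 and 8901 of all genes were called in MHCC97H against A549, and 5 and 8990 in A549 against HCT116. MHCC97H against A549 had 4581 genes without the untreated and 4038 without the S2101 libraries, and A549 against HCT116 had 4401 without the S2101 libraries. The cause of these shifts was not tested. The log2 values behind the sign changes follow, and none that changed sign passed the test. With lines or the A549 S2101 library left out, HDAC9 ran from -0.438 to 0.858 and HDAC10 from -0.398 to 0.034 in TSA against untreated. In the same contrast HDAC1 ran from -0.008 to 0.452. Its value of 0.452, without HCT116, kept its sign and did pass (edgeR adjusted p = 0.0494). HDAC4 ran from -0.088 to 0.44 and HDAC7 from -0.033 to 0.16 in GSK126 against untreated, and HDAC4 from -0.065 to 0.071 in S2101 against untreated. In TSA against GSK126, HDAC5 ran from -0.273 to 0.245, HDAC9 from -1.272 to 0.108 and HDAC6 from -0.169 to 0.009, and in TSA against S2101, HDAC9 from -1.136 to 0.832. In GSK126 against S2101, HDAC4 ran from -0.023 to 0.37 and HDAC11 from -0.088 to 0.095, and in A549 against HCT116 HDAC11 stood at 0.039. With no replicate block, HDAC9 stood at -1.021 under TSA and -0.001 in GSK126 against S2101. With at least 10 CPM in 3 libraries, HDAC10 stood at 0.006 under TSA, HDAC6 at 0.037 in TSA against GSK126 and HDAC5 at -0.059 in MHCC97H against HCT116. That last value was -0.013 with no filter and -0.327, -0.026 and -0.085 without the TSA, GSK126 and S2101 libraries. In A549 against HCT116, HDAC4 stood at 0.12 without the GSK126 libraries, HDAC7 at -0.32, -0.195 and -0.138 without the untreated, GSK126 and S2101 libraries, and HDAC11 at 0.185 and 0.02 without the untreated and S2101 libraries and 0.003 by DESeq2. A filter by the design matrix, chosen after seeing the data, kept 16929 genes and the same numbers of members called. Of 189 changes within a line recomputed with other pseudocounts or library totals, 180 stayed inside the counting interval and 2 changed sign, both from a log2 size of at most 0.08. Low counts limit HDAC9 in A549.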
